A study of Homo sapiens with 6 samples.

Results

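The genes described here are the cyclins, the cyclin-dependent kinases (CDKs), the CDK inhibitors, the CDC25 phosphatases and the E2F and RB factors, read in AsPC-1 cells. AsPC-1 is a human cell line that was established from a pancreatic adenocarcinoma. The members were 59 genes taken by symbol, and every symbol was found in the deposited table of 26228 rows. RNA was measured in 2 groups of 3 libraries: cells given DON (6-Diazo-5-oxo-l-norleucine), a glutamine analog that blocks enzymes which use glutamine, and cells given vehicle. Both groups spent 24 h in medium without serum, so the vehicle cells had also lost serum, and all 6 libraries are of this cell line. The dose of DON is not given in the labels. The values are FPKM, reads per kilobase of transcript scaled to the mapped reads of the library, so levels may be set against each other between genes.

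Passage through the cell cycle is driven by those CDKs that are active only when bound to a cyclin. D-type cyclins with CDK4 or CDK6 begin to phosphorylate the pocket proteins RB1, RBL1 and RBL2, which frees E2F factors to transcribe genes of S phase, among them the E-type cyclins that activate CDK2. A- and B-type cyclins with CDK1 drive mitosis, WEE1 and the CDC25 phosphatases hold and release that kinase, and the CDKN1 and CDKN2 inhibitors block the complexes. A second set of cyclin-CDK pairs does not time the cycle but phosphorylates RNA polymerase II and the Mediator complex during transcription.

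Of the 59 members, 57 reached 1 FPKM in at least 3 of the 6 libraries and were tested. The test was limma on log2(FPKM + 1) across 11471 genes, with an adjusted p under 0.05 as the threshold for a call. CCND2, a D-type cyclin, stood at the table's floor of 0.01 FPKM in every library, and CDK14, a kinase that pairs with cyclin Y, stayed between 0.01 and 0.122 FPKM, so neither was tested. In DON 8 members rose and 30 fell, and 19 were not called. E2F8, among the 30, passed the filter through the vehicle libraries alone, so its fall was set by the filter, and 29 of the other 56 fell. The 38 called are 66.7% of the tested members, against 38.9% called among all tested genes. The members called higher made up 14% of those tested, against 18.3% of all tested genes, and the members called lower made up 52.6%, against 20.6% of all tested genes. The median log2 fold change was -0.33 over the tested members and -0.012 over all tested genes. In 45 of the 57 the DON and vehicle libraries did not overlap, which held for 51.5% of all tested genes. Without DON 2, 8 members were higher and 21 lower, and over all genes 1185 were higher and 1504 lower, against 2096 and 2363 with all 6 libraries. The labels do not say whether replicates were separate cultures, and the spread that p-values rest on may therefore be technical. In bulk RNA, fewer cycling cells and less RNA of these genes per cell cannot be told apart.

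The libraries behind these values were alike in total, with FPKM sums between 525200 and 556950. Steps between the lowest values put the relative depth of the other 5 libraries at 1.26 to 1.69 times that of vehicle 1, the shallowest, while absolute depth is unknown. Epithelial markers with a value in every library (EPCAM, KRT19 and CDH1 of the 5 fixed) summed to 2492 to 3438 FPKM in DON and 2748 to 3580 FPKM in vehicle. The lists of 4 fibroblast, 2 endothelial and 3 acinar markers each summed to at most 0.668 FPKM in DON and 0.905 FPKM in vehicle, and CPA1 of the acinar list stood at the floor. The 3 leukocyte genes summed to 26.0 to 40.3 FPKM in DON and 16.7 to 28.1 FPKM in vehicle, nearly all of it CD68, a lysosomal protein, while CD3E stood at the floor. Their part in the results was not tested. The libraries of each group also spread along a second principal component that held 19.7% of the variance and did not part the groups. Along it both groups were ordered by replicate number. Replicates 1 to 3 stood at -26.3, 4.74 and 14 in DON and at -12.9, -6.16 and 26.7 in vehicle.

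**Figure D1:**
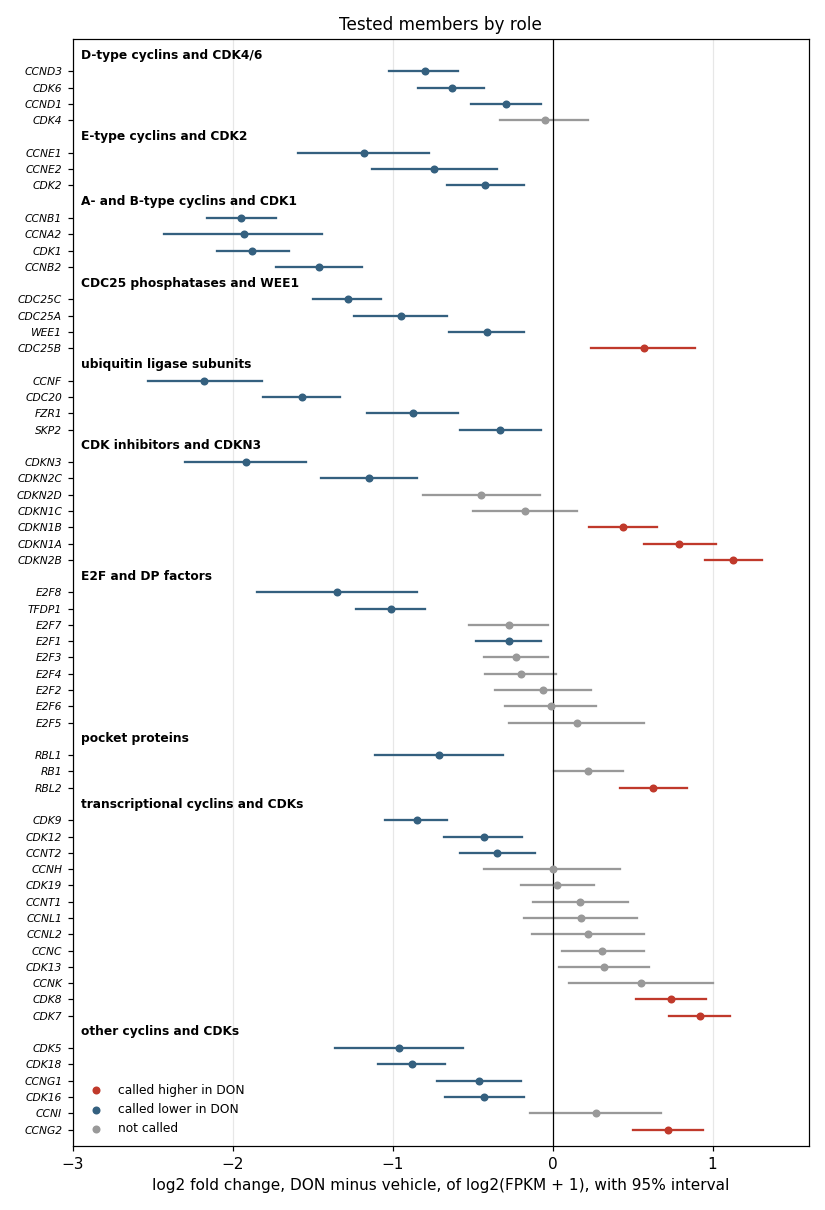
Change of the 57 tested members, grouped by role. Each point is the log2 fold change (DON minus vehicle, on log2(FPKM + 1), horizontal axis) with its 95% interval from limma; red members were called higher in DON (8), blue lower (30) and grey not called (19). The A- and B-type cyclins and CDK1 all lie left of -1, and CDKN2B lies farthest right at 1.13.

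The mitotic engine fell throughout. CCNA2, CCNB1, CCNB2 and CDK1, 4 of 4 tested, were lower in DON, with a median log2 fold change of -1.91. Among all tested genes 20.6% were called lower. CCNB1, the main mitotic cyclin, had 33.2, 32.0 and 28.2 FPKM in the DON libraries, against 125, 126 and 117 FPKM in the vehicle libraries. CDK1, the kinase it activates, had 28.9, 33.7 and 30.6 FPKM in DON and 126, 109 and 116 FPKM in vehicle. For both genes every DON library lay far below every vehicle library. The fall was 3.94-fold for CCNB1 (log2 fold change -1.95 ± 0.09 SE, limma adjusted p = 3.72e-05) and 3.76-fold for CDK1 (-1.88 ± 0.10, adjusted p = 4.41e-05). CCNA2, the cyclin of S and G2 phase, had 5.82, 5.79 and 6.65 FPKM in DON and 18.7, 26.9 and 34.9 FPKM in vehicle, so its vehicle libraries spread widely but stayed apart from DON (4.41-fold lower, -1.93 ± 0.21, limma adjusted p = 0.000651). CCNB2, the other B-type cyclin, had 11.8, 11.2 and 13.5 FPKM in DON and 32.3, 33.7 and 39.8 FPKM in vehicle. It fell 2.90-fold, less than CCNB1, and the ratio of CCNB1 to CCNB2 was lower in all DON libraries than in any vehicle library. That log2 ratio averaged 1.29 ± 0.24 in DON and 1.77 ± 0.21 in vehicle (SD, n = 3 each; exact two-sided permutation p = 0.1, the smallest that 3 against 3 libraries can give). Here and below, ratios of members are differences of log2(FPKM + 1) within a library, so they depart from FPKM ratios for low genes.

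Promoters of these genes are known to carry CCAAT boxes and a cell cycle homology region (CHR), the element bound by the DREAM and MuvB complexes that silence or activate mitotic genes. The promoter windows below, from 250 bases before to 50 bases after the start, are RefSeq's on GRCh38.p14 and read 5′ to 3′ on the gene's strand. The first lies at chr5:69166900-69167199 and the next at chr15:59104896-59105195, both on the plus strand, and they are shown because these cyclins are among the members that fell. Capitals mark CCAAT and TTTGAA, searched on both strands.
CCNB1: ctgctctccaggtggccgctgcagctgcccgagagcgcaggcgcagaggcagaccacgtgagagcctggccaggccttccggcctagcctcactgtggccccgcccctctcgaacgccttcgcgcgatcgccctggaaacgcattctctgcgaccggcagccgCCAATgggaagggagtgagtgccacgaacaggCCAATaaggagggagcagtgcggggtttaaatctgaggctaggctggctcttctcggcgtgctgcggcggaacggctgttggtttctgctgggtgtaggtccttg
CCNB2: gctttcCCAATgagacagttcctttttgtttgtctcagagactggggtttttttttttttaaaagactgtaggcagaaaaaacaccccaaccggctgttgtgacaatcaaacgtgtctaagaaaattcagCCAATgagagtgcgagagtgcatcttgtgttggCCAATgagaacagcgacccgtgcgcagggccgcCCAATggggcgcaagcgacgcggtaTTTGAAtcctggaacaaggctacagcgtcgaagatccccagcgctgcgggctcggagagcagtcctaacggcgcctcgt
The CCNB1 window held 2 CCAAT boxes, starting 87 and 55 bases before the start of the gene and thus 32 bases apart. The CCNB2 window held 4, the last 3 of them spaced by 33 bases, with a CHR starting 29 bases before the gene. In the 51 members with a window, TTTGAA was found in 6 of the 25 called lower, in 1 of the 8 called higher and in 3 of the 17 not called, and it stood in 15.2% of all 35116 RefSeq windows. CCAAT was found in 13 of the 25 called lower, in 1 of the 8 called higher and in 8 of the 17 not called, against 34.6% of all windows. These matches are a description of the letters and show no binding. Only these exact letters were searched, in the first window listed for each gene. A window without a match may therefore hold a variant of the element, and other starts of a gene were not read.

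The E-type cyclins and CDK2, which start S phase, fell in 3 of 3 cases (median log2 fold change -0.74), against 20.6% of all tested genes. CCNE1 had 1.29, 1.73 and 1.49 FPKM in DON and 6.11, 4.45 and 3.67 FPKM in vehicle, a fall of 3.16-fold (-1.18 ± 0.17, limma adjusted p = 0.00232). CCNE2 had 1.87, 2.56 and 3.32 FPKM in DON and 4.87, 4.44 and 5.45 FPKM in vehicle. The groups stayed apart for both cyclins, with a smaller gap for CCNE2 (1.90-fold lower, adjusted p = 0.0126). The ratio of CCNE1 to CCNE2 overlapped between groups, so a difference between their falls was not shown (exact permutation p = 0.3). CCNE2 shares up to 1628 bases of exon with INTS8 on the opposite strand. INTS8 averaged 35.5 FPKM in DON and 44.8 FPKM in vehicle, and its part in the fall of CCNE2 was not tested. Whether counting used strand is not given in the sources used here. In all, 15 of the 38 called members share exon bases with an annotated gene on the opposite strand, by at most 7 to 1628 bases, among them CCNA2 (250, EXOSC9), CDC25C (293, FAM53C) and CDK5 (331, SLC4A2). CDK2 had 12.5, 12.8 and 11.5 FPKM in DON and 15.5, 18.8 and 16.1 FPKM in vehicle. Its fall of 1.37-fold (limma adjusted p = 0.0163) lost its call without DON 2 (adjusted p = 0.051), DON 3 (0.0613) or vehicle 2 (0.0538).

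Among the G1 members, which respond to growth factors, CCND3 and CDK6 fell while CDK4 was not called. CCND3 had 6.02, 6.07 and 5.44 FPKM in DON and 11.3, 11.2 and 10.2 FPKM in vehicle (1.87-fold lower, -0.80 ± 0.09 SE, limma adjusted p = 0.000807). CDK6 had 6.94, 6.91 and 7.06 FPKM in DON and 11.8, 11.8 and 10.6 FPKM in vehicle (1.63-fold lower, adjusted p = 0.00166). Neither gene's libraries overlapped between groups. CCND1, the more abundant D-type cyclin, had 42.2, 38.3 and 40.2 FPKM in DON and 52.3, 51.5 and 44.5 FPKM in vehicle. Its fall was 1.23-fold at limma adjusted p = 0.0473. That call was lost without DON 2 (adjusted p = 0.17), DON 3 (0.117), vehicle 1 (0.135) or vehicle 2 (0.142), and with no filter (0.0563), median-of-ratios scaling (0.05) or limma without an intensity trend (0.0587). CDK4 had 72.1, 59.6 and 59.6 FPKM in DON and 73.2, 65.9 and 59.5 FPKM in vehicle, with overlapping groups (-0.05, 95% interval -0.33 to 0.22, limma adjusted p = 0.743). CDK4 shares up to 891 bases of exon with TSPAN31 on the opposite strand. Within libraries, the log2 ratio of CCND1 to CCND3 averaged 2.59 ± 0.11 in DON and 2.08 ± 0.05 in vehicle, and that of CDK4 to CDK6 averaged 3.02 ± 0.16 in DON and 2.44 ± 0.08 in vehicle (SD, n = 3 each). Both ratios were higher in every DON library than in any vehicle library (exact permutation p = 0.1 each).

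The CDC25 phosphatases, which remove the inhibitory phosphate from CDKs, moved in opposite directions. CDC25B was the most abundant of the 3 in both groups and rose, with 220.0, 181 and 168 FPKM in DON and 135, 138 and 109.5 FPKM in vehicle (1.49-fold higher, 0.57 ± 0.14 SE, limma adjusted p = 0.0167). CDC25C, which acts at mitotic entry, had 4.93, 5.54 and 5.66 FPKM in DON and 15.2, 13.7 and 14.7 FPKM in vehicle (2.70-fold lower, -1.28 ± 0.09, limma adjusted p = 0.000141). CDC25A, which acts from G1 onward, had 1.5, 1.33 and 1.04 FPKM in DON and 3.15, 3.65 and 3.43 FPKM in vehicle, a fall of 2.65-fold (adjusted p = 0.00137). The DON and vehicle libraries did not overlap for any of the 3 genes. On the log2 scale the ratio of CDC25B to CDC25C averaged 4.89 ± 0.29 in DON and 3.04 ± 0.22 in vehicle (SD, n = 3 each; exact permutation p = 0.1). WEE1, the kinase that adds the inhibitory phosphate, had 13.1, 13.2 and 12.8 FPKM in DON and 16.1, 19.9 and 17.2 FPKM in vehicle. Its fall of 1.36-fold (limma adjusted p = 0.0157) missed the threshold without DON 2 (limma adjusted p = 0.06), DON 3 (0.0535) or vehicle 2 (0.0501).

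All 4 ubiquitin ligase subunits fell (median log2 fold change -1.22), against 20.6% of all tested genes. CCNF, a cyclin that binds no CDK and instead brings substrates to the SCF ligase, had 4.20, 2.79 and 3.36 FPKM in DON and 21.1, 19.8 and 16.3 FPKM in vehicle. Its log2 fold change of -2.18 ± 0.15 SE was the largest of any tested member (5.53-fold lower, limma adjusted p = 0.000126). CDC20, which activates the anaphase-promoting complex in mitosis, had 21.2, 19.0 and 16.8 FPKM in DON and 56.0, 59.4 and 58.7 FPKM in vehicle (3.06-fold lower, adjusted p = 0.000102). FZR1, which activates the same complex in late mitosis and G1, had 7.31, 5.69 and 5.89 FPKM in DON and 13.6, 11.5 and 11.8 FPKM in vehicle (1.96-fold lower, limma adjusted p = 0.00173). For each of these genes all DON libraries lay below all vehicle libraries. SKP2, the SCF subunit that directs CDKN1B to degradation, had 8.67, 8.61 and 7.52 FPKM in DON and 9.59, 11.8 and 10.5 FPKM in vehicle, without overlap. Its call (1.29-fold lower, limma adjusted p = 0.0494) rested on DON 1, DON 2, DON 3, vehicle 2 and vehicle 3, since leaving out any of these ended it (adjusted p of 0.0574, 0.11, 0.157, 0.153 and 0.0851 in that order). The call also ended with no filter (adjusted p = 0.082), quantile normalization (0.0601) and limma without an intensity trend (0.0511).

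**Figure D2:**
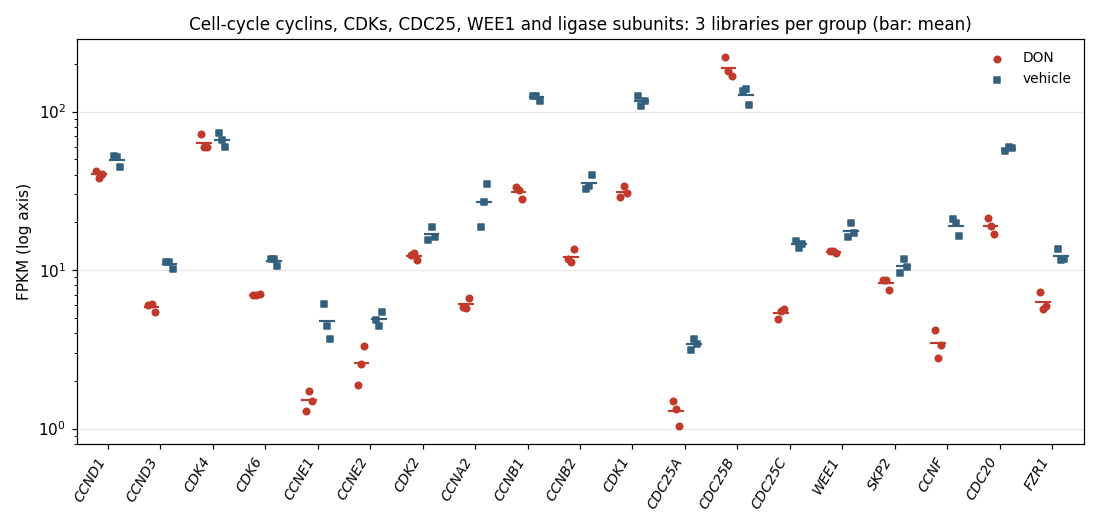
Levels of the cell-cycle cyclins, their CDKs, the CDC25 phosphatases, WEE1 and the ligase subunits in each library (FPKM, log axis). Red circles are the 3 DON libraries, blue squares the 3 vehicle libraries and bars their means; CDC25B is the gene whose DON libraries all lie above vehicle, and for CDK4 the groups overlap.

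The CDK inhibitors did not move together. Counted with the phosphatase CDKN3, 3 of 7 were higher and 2 lower, and the 2 were the inhibitor CDKN2C and CDKN3 itself. In this set 42.9% were called higher and 28.6% lower, against 18.3% and 20.6% of all tested genes. CDKN2B (p15), an inhibitor of CDK4 and CDK6, rose furthest, with 68.4, 70.5 and 69.9 FPKM in DON and 29.9, 32.6 and 31.3 FPKM in vehicle (2.22-fold higher, 1.13 ± 0.08 SE, limma adjusted p = 0.000114). CDKN1A (p21), which inhibits CDK2 and is a p53 target, had 21.3, 21.5 and 20.8 FPKM in DON and 11.1, 13.3 and 11.2 FPKM in vehicle (1.79-fold higher, 0.79 ± 0.09, adjusted p = 0.00101). CDKN1B (p27), the related inhibitor that SKP2 turns over, had 60.4, 55.6 and 56.7 FPKM in DON and 38.4, 44.0 and 44.5 FPKM in vehicle (1.36-fold higher, limma adjusted p = 0.00896). The 3 genes stood above vehicle in every DON library. In DON the mean of CDKN2B (69.6 FPKM) was above that of CDKN1B (57.6 FPKM), and in vehicle it was below (31.3 FPKM for CDKN2B and 42.3 FPKM for CDKN1B). CDKN2C (p18), of the same family as CDKN2B, went the other way, with 3.14, 3.59 and 2.51 FPKM in DON and 8.64, 7.92 and 7.49 FPKM in vehicle (2.60-fold lower, -1.15 ± 0.13, limma adjusted p = 0.000696). The log2 ratio of CDKN2B to CDKN2C averaged 4.12 ± 0.19 in DON and 1.84 ± 0.14 in vehicle (SD, n = 3 each; exact permutation p = 0.1), the widest difference of the 15 related pairs compared.

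The inhibitors CDKN2D and CDKN1C were low. CDKN2D (p19) had 2.22, 1.39 and 1.32 FPKM in DON and 2.59, 2.72 and 2.39 FPKM in vehicle, with no overlap and no call (limma adjusted p = 0.0564). It passed as lower without DON 1 (adjusted p = 0.0131) and without an intensity trend (0.0446). CDKN1C (p57) overlapped between groups, at 0.968 to 1.55 FPKM in DON and 1.45 to 1.53 FPKM in vehicle. CDKN3, a phosphatase that dephosphorylates CDKs and is itself a gene of dividing cells, had 11.9, 12.0 and 15.1 FPKM in DON and 44.3, 48.3 and 64.3 FPKM in vehicle (4.02-fold lower, -1.92 ± 0.16, limma adjusted p = 0.000254). Its fall was close in size to those of CCNA2 (-1.93) and CDK1 (-1.88).

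Among the E2F and DP factors 0 rose and, leaving out E2F8, 2 of 8 fell. With E2F8 the share called was 33.3%, near the 38.9% of all tested genes. TFDP1, a DP dimer partner of E2F1 to E2F6, had 22.3, 21.7 and 21.4 FPKM in DON and 48.9, 45.7 and 41.1 FPKM in vehicle (2.07-fold lower, -1.01 ± 0.09 SE, limma adjusted p = 0.000297). E2F8, a repressor that needs no DP partner, had 0.749, 0.463 and 0.365 FPKM in DON and 1.89, 3.13 and 3.83 FPKM in vehicle. Its value was under 1 FPKM in every DON library, so it reached the filter through vehicle alone and had to differ, and its test is no support for a fall. E2F7, the related repressor, had 2.10, 1.98 and 2.14 FPKM in DON and 2.50, 2.93 and 2.73 FPKM in vehicle, without overlap but not called (adjusted p = 0.0761, and 0.0445 without an intensity trend). The ratio of E2F7 to E2F8 carries the same limit.

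E2F1, the best known activator, had 13, 12.2 and 11.7 FPKM in DON and 15.9, 14.6 and 14.6 FPKM in vehicle. The groups were close but apart, and the fall of 1.22-fold was called at limma adjusted p = 0.0423. It was not called without DON 2 (adjusted p = 0.138), DON 3 (0.143), vehicle 1 (0.11), vehicle 2 (0.0896) or vehicle 3 (0.0642), nor with quantile normalization (0.0556). E2F3, another activator, averaged 7.82 ± 0.367 FPKM in DON and 9.35 ± 0.334 FPKM in vehicle (limma adjusted p = 0.0687), and the third, E2F2, averaged 1.4 ± 0.251 FPKM in DON and 1.5 ± 0.135 FPKM in vehicle (adjusted p = 0.724). The ratio of E2F3 to E2F1 overlapped between groups (exact permutation p = 0.7). E2F4, which works mainly with pocket proteins as a repressor, averaged 27.6 ± 1.09 FPKM in DON and 31.8 ± 2.77 FPKM in vehicle (limma adjusted p = 0.132). E2F5 overlapped at 16.7 to 24.8 FPKM in DON and 16.2 to 21.3 FPKM in vehicle, and E2F6 at 4.61 to 5.01 FPKM in DON and 4.25 to 5.81 FPKM in vehicle.

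The E2F1 promoter is shown because E2F factors are known to bind the promoters of E2F genes as well as those of their targets. The window lies at chr20:33686336-33686635 on the minus strand of GRCh38.p14, and capitals mark TTTNNCGC, an E2F-type motif, and CCAAT, both on either strand.
E2F1: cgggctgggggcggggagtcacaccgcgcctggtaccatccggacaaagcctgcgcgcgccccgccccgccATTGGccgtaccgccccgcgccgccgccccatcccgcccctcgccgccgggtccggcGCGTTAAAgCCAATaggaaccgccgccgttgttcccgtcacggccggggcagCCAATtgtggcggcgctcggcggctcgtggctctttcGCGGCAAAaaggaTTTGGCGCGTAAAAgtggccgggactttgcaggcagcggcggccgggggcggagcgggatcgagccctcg
It held 4 matches to TTTNNCGC, of which the last 2 overlap and start 20 and 14 bases before the start, and 3 CCAAT boxes. The motif was found in 7 of the 25 members called lower, in 0 of the 8 called higher and in 4 of the 17 not called, and it stood in 6.89% of all windows.

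The pocket proteins parted. RBL2 (p130), which assembles the DREAM repressor in resting cells, had 38.9, 45.3 and 45.4 FPKM in DON and 26.9, 27.6 and 27.9 FPKM in vehicle (1.57-fold higher, 0.63 ± 0.09 SE, limma adjusted p = 0.00207). RBL2 shares up to 610 bases of exon with AKTIP on the opposite strand, which averaged 10.1 FPKM in DON and 5.49 FPKM in vehicle, and its part in the rise was not tested. RBL1 (p107), the pocket protein that is itself an E2F target, had 1.53, 1.94 and 2.47 FPKM in DON and 3.06, 4.05 and 4.49 FPKM in vehicle (1.95-fold lower, limma adjusted p = 0.0156). The call was lost without DON 2 (adjusted p = 0.0563) or vehicle 2 (0.054). Neither gene overlapped between groups, and the log2 ratio of RBL2 to RBL1 averaged 3.90 ± 0.14 in DON and 2.56 ± 0.20 in vehicle (SD, n = 3 each; exact permutation p = 0.1). RB1, the retinoblastoma protein, had 21.0, 22.1 and 23.4 FPKM in DON and 18.2, 17.9 and 20.5 FPKM in vehicle. These libraries did not overlap, and the difference was not called (0.22, 95% interval 0.01 to 0.44, limma adjusted p = 0.0927).

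**Figure D3:**
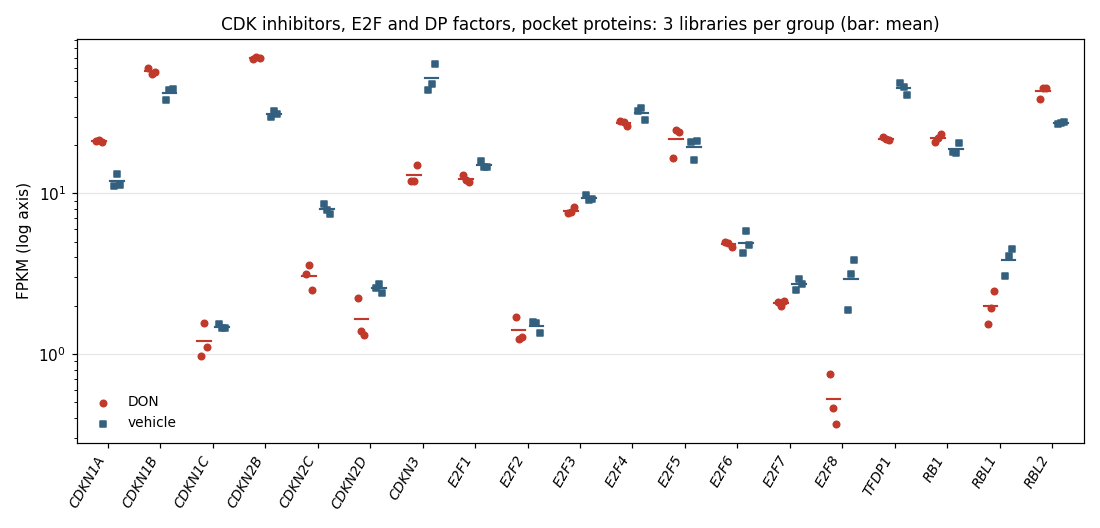
Levels of the CDK inhibitors with CDKN3, the E2F and DP factors and the pocket proteins in each library (FPKM, log axis). Red circles are the 3 DON libraries, blue squares the 3 vehicle libraries and bars their means; CDKN1A, CDKN1B, CDKN2B and RBL2 lie higher in DON, while CDKN2C, CDKN3, TFDP1, E2F8 and RBL1 lie lower.

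The transcriptional cyclins and CDKs showed no common direction, with 2 of 13 higher, 3 lower and 8 not called (median log2 fold change 0.18). The share called, 38.5%, was close to the 38.9% of all tested genes. CDK7, the kinase of transcription factor TFIIH that also activates other CDKs, had 115, 126 and 122 FPKM in DON and 66.9, 61.7 and 61.2 FPKM in vehicle (1.91-fold higher, 0.92 ± 0.08 SE, limma adjusted p = 0.000285). CCNH, the cyclin of CDK7, had 21.6, 31.5 and 29.6 FPKM in DON and 30.5, 22.1 and 30.0 FPKM in vehicle, with overlapping groups (95% interval -0.43 to 0.42, limma adjusted p = 0.996). MNAT1, the assembly factor of the same trio, is on a context list and was chosen after its values were seen. It averaged 42.1 ± 4.01 FPKM in DON and 25.6 ± 2.47 FPKM in vehicle (limma adjusted p = 0.00294). GTF2H1, a TFIIH core subunit, rose 1.55-fold (limma adjusted p = 0.00202). The other 5 TFIIH subunits tested were not called. Of these, ERCC2 averaged 3.86 ± 1.05 FPKM in DON and 5.81 ± 0.572 FPKM in vehicle, and GTF2H3 24.8 ± 1.35 FPKM in DON and 30.5 ± 2.74 FPKM in vehicle (limma adjusted p of 0.0505 and 0.0512), both lower without overlap.

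CDK8, a kinase of the Mediator complex, had 25.9, 26.5 and 28.7 FPKM in DON and 15.0, 15.1 and 17.2 FPKM in vehicle (1.71-fold higher, 0.74 ± 0.09 SE, limma adjusted p = 0.00117). Its paralog CDK19 had 8.84, 9.14 and 9.53 FPKM in DON and 10.0, 8.38 and 8.60 FPKM in vehicle, with overlapping groups (0.03, 95% interval -0.20 to 0.26). Relative to CDK19, CDK8 had a log2 ratio that averaged 1.46 ± 0.03 in DON and 0.75 ± 0.19 in vehicle (SD, n = 3 each; exact permutation p = 0.1). CCNC, the cyclin both kinases share, had 41.8, 50.5 and 51.3 FPKM in DON and 40.7, 35.6 and 38.3 FPKM in vehicle. Every DON library was above vehicle, but the call was missed (limma adjusted p = 0.0547) except without DON 1 (0.0155) or with the GC correction described below (0.0208).

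CDK9, which releases paused RNA polymerase II as the kinase of P-TEFb, went down, with 11.2, 10.5 and 9.89 FPKM in DON and 19.7, 19.4 and 20.3 FPKM in vehicle (1.88-fold lower, -0.85 ± 0.08 SE, limma adjusted p = 0.000438). Exons of CDK9 also hold the microRNA genes MIR3960 and MIR2861 on the same strand. MIR3960 stood at the floor of 0.01 FPKM in all DON libraries and in vehicle 3, and at 83.2 and 24.5 FPKM in vehicle 1 and vehicle 2, and its part in the fall was not tested. The P-TEFb inhibitor HEXIM1, from a context list, fell 1.92-fold (adjusted p = 0.00187). Of the cyclins of CDK9, CCNT2 had 6.14, 6.91 and 7.21 FPKM in DON and 8.82, 8.26 and 9.54 FPKM in vehicle (1.31-fold lower, limma adjusted p = 0.0307). It lost its call on leaving out any of the 6 libraries, DON 1 to 3 and vehicle 1 to 3 (adjusted p of 0.0521 to 0.0896), and with no filter (0.0529). CCNT1 overlapped at 12.7 to 15.1 FPKM in DON and 10.1 to 12.9 FPKM in vehicle. The ratio of CCNT1 to CCNT2 was higher in every DON library (exact permutation p = 0.1).

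Of CDK12 and CDK13, which phosphorylate elongating polymerase, the first fell and the other was not called. CDK12 had 5.92, 6.59 and 6.29 FPKM in DON and 8.81, 7.92 and 9.79 FPKM in vehicle (1.41-fold lower, limma adjusted p = 0.016, and 0.0505 without DON 3). CDK13 had 11.5, 12.3 and 13.6 FPKM in DON and 8.71, 9.42 and 11.4 FPKM in vehicle, not overlapping and not called (limma adjusted p = 0.0731). It was called higher without vehicle 3 (adjusted p = 0.029). Between CDK12 and CDK13 the log2 ratio averaged -0.89 ± 0.10 in DON and -0.14 ± 0.13 in vehicle (SD, n = 3 each; exact permutation p = 0.1). CCNK, the cyclin of both, had 13.7, 19.0 and 21.1 FPKM in DON and 9.97, 11.1 and 14.6 FPKM in vehicle, overlapping by DON 1 and vehicle 3 (limma adjusted p = 0.0577). CCNK passed as higher without DON 1 (adjusted p = 0.0148) or vehicle 3 (0.0272). CCNK also shares up to 2284 bases of exon with CCDC85C on the opposite strand. CCNL1 and CCNL2, cyclins of splicing, overlapped between groups, at 12.5 to 15.6 and 43.0 to 56.7 FPKM in DON and at 10.7 to 15.3 and 34.7 to 46.7 FPKM in vehicle.

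Of the members outside these pathways, the G-type cyclins diverged. CCNG2, a cyclin linked to growth arrest, had 24.5, 24.1 and 27.0 FPKM in DON and 14.6, 16.2 and 14.1 FPKM in vehicle (1.69-fold higher, 0.72 ± 0.09 SE, limma adjusted p = 0.00129). CCNG1, a p53 target, had 77.0, 83.8 and 84.0 FPKM in DON and 115, 97.7 and 126 FPKM in vehicle (1.39-fold lower, limma adjusted p = 0.0169). That call was lost without DON 2 (adjusted p = 0.0553) or vehicle 1 (0.057). The log2 ratio of CCNG2 to CCNG1 averaged -1.66 ± 0.08 in DON and -2.83 ± 0.28 in vehicle (SD, n = 3 each; exact permutation p = 0.1). CCNI, an abundant cyclin of uncertain role, overlapped at 104 to 146 FPKM in DON and 86.6 to 126 FPKM in vehicle. CDK5, a kinase best known from neurons, had 21.1, 16.2 and 14.9 FPKM in DON and 40.5, 35.5 and 28.5 FPKM in vehicle (2.0-fold lower, limma adjusted p = 0.00491). CDK18, of the same branch as CDK16, had 5.49, 5.53 and 6.15 FPKM in DON and 10.9, 11.9 and 11.4 FPKM in vehicle (1.99-fold lower, -0.88 ± 0.09, adjusted p = 0.000503). CDK16 had 11.7, 12.8 and 14.8 FPKM in DON and 17.2, 17.8 and 18.6 FPKM in vehicle (1.37-fold lower, limma adjusted p = 0.0173), with the call lost without DON 2 (0.0703) or vehicle 2 (0.0539). For these 3 kinases all DON libraries were below all vehicle libraries.

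The promoters of a pair of members that rose are shown beside those that fell. CDKN2B lies at chr9:22009256-22009555 on the minus strand and CCNG2 at chr4:77156957-77157256 on the plus strand of GRCh38.p14, and neither window holds any of the 3 motifs on either strand, so neither carries capitals.
CDKN2B: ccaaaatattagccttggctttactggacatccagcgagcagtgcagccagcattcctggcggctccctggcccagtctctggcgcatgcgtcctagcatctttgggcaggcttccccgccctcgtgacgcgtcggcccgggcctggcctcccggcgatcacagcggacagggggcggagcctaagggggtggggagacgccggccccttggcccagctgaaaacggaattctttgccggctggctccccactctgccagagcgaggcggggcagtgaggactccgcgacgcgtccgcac
CCNG2: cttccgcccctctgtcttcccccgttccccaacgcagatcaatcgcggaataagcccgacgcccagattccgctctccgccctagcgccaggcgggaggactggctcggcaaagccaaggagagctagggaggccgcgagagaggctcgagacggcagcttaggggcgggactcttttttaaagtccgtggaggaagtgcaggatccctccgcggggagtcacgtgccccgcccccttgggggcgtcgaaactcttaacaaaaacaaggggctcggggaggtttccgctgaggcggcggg
A missing match says only that these letters are not in the window. The windows shown do not stand for all members. CDKN1B and RBL2 rose, and their windows held CCAAT and TTTGAA respectively. CCNE1, CCND3 and CDK6 fell, and their windows held none of the 3 motifs.

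Across the 15 pairs of related members in which both were tested, the ratio differed without overlap between groups in 12. Leaving out E2F7 with E2F8, it did so in 11 of 14. How often other pairs of genes part in this way was not computed, and single genes did so in 51.5% of all tested. The exact permutation p was 0.1 for each of those 12 and 0.125 after Benjamini-Hochberg adjustment over the 15, so none could pass 0.05 with 3 libraries against 3. The pairs that overlapped were CCNE1 with CCNE2, E2F3 with E2F1 and CCNL1 with CCNL2. The log2 ratio of CDKN1A to CDKN1B was among those apart, at -1.4 ± 0.06 in DON and -1.75 ± 0.13 in vehicle (SD, n = 3 each).

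**Figure D4:**
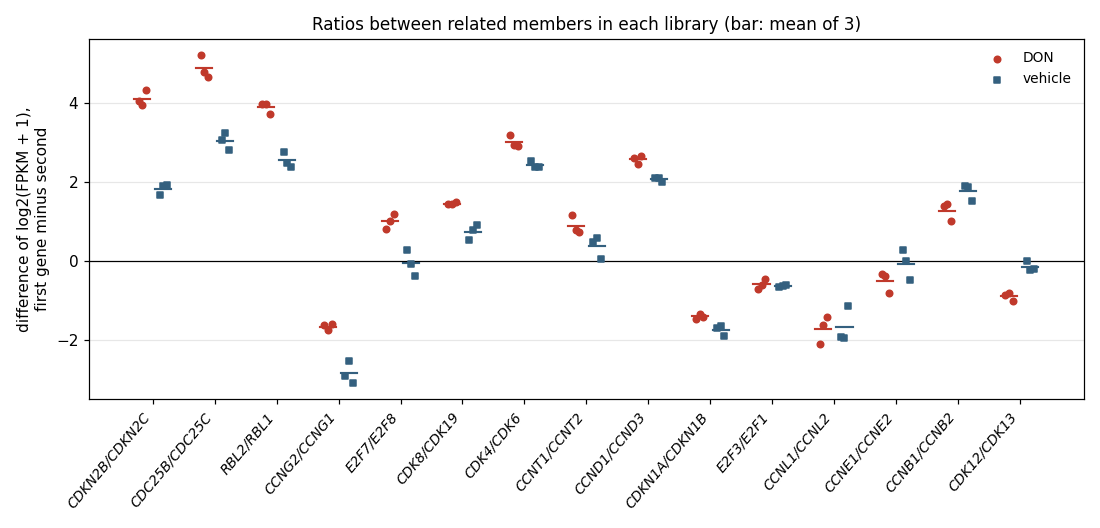
Difference of log2(FPKM + 1) between 2 related members within each library, first gene minus second, for 15 pairs ordered by how far the groups differ. Red circles are DON, blue squares vehicle and bars the means of 3 libraries; the groups overlap for CCNE1/CCNE2, E2F3/E2F1 and CCNL1/CCNL2 and stay apart for the other 12.

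Other genes of the pathway were read from lists that do not contain the members. Of 28 E2F targets of G1/S and S phase 0 rose and 20 fell (median log2 fold change -0.70). The share called lower was 71.4%, against 20.6% of all tested genes. CLSPN and MCM10 were under 1 FPKM in every DON library and passed the filter through vehicle alone, and 18 of the other 26 fell. RRM2, a ribonucleotide reductase subunit, fell 3.53-fold (limma adjusted p = 3.83e-05), GINS2 of the replicative helicase 3.38-fold (0.000751) and the thymidylate synthase TYMS 2.80-fold (0.000114). Of 24 genes listed as DREAM and FOXM1 targets of G2 and mitosis 0 rose and 23 fell (median -1.70), among them KIF20A, HMMR and TOP2A by 8.07-fold, 5.96-fold and 5.69-fold. The 23 are 95.8% of this list, against 20.6% of all tested genes called lower. The gene not called was CCNB1IP1 (adjusted p = 0.204), a ubiquitin ligase that binds cyclin B1 and is not an established target of these factors, so its place on the list is doubtful. The p53 targets had 4 of 20 higher and 3 lower (median 0.15), with SESN2 4.09-fold and BTG2 2.28-fold higher. The share of p53 targets called, 35%, was near the 38.9% of all tested genes, and 13 of the 20 were not called.

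The partners of the members changed in smaller numbers. Of 19 tested cyclins, CDKs and CDK subunits that are not members 4 rose and 3 fell, with CCNYL1 1.96-fold higher (limma adjusted p = 0.000548) and CDK10, a kinase that pairs with cyclin M, 2.09-fold lower (adjusted p = 0.000789). Of 10 partners of the pocket proteins, DREAM and MuvB 1 rose and 1 fell. These were LIN37, a MuvB subunit, at 2.0-fold higher (limma adjusted p = 0.011) and the deacetylase HDAC1 at 1.33-fold lower (adjusted p = 0.0135). Of 19 ligase partners 2 rose and 4 fell, with UBE2S, which elongates ubiquitin chains for the anaphase-promoting complex, 2.56-fold lower and the checkpoint gene MAD2L1 1.78-fold lower. Of 15 tested partners in the Mediator kinase module, P-TEFb and TFIIH 3 rose and 2 fell. Besides GTF2H1 and HEXIM1 these were MED13L and AFF4, higher at limma adjusted p of 0.0241 and 0.0343, and MED12, lower at 0.0458, named after their values were seen. Over all 7 lists 14 genes were called higher, and 9 without DON 2. Shares called in the 4 lists were 36.8%, 20.0%, 31.6% and 33.3% in that order, each below the 38.9% of all tested genes.

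**Figure D5:**
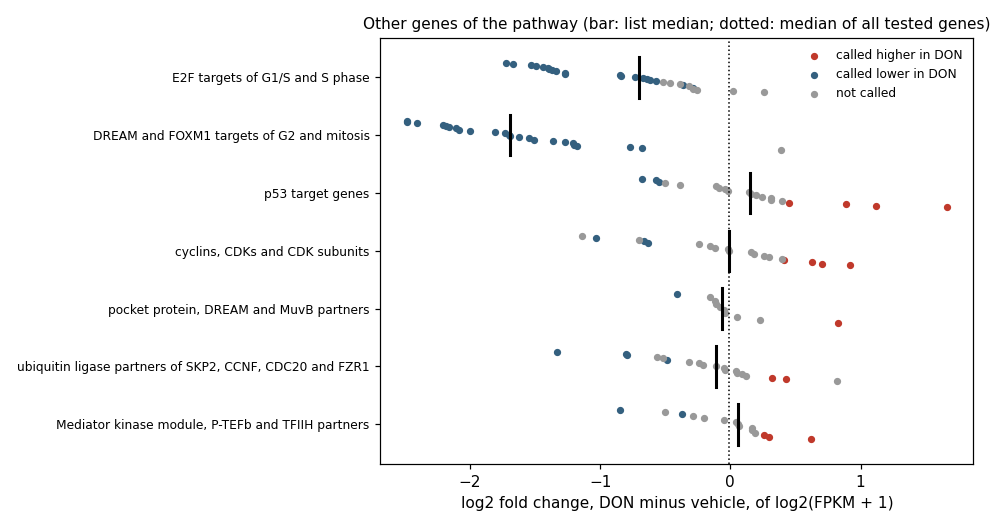
Log2 fold change (DON minus vehicle, on log2(FPKM + 1)) of each tested gene in 7 lists of the pathway's other genes, 1 list per line. Points are genes, red where called higher in DON, blue lower and grey not called; black bars are list medians, at -0.70 for E2F targets and -1.70 for DREAM and FOXM1 targets, and the dotted line is the median of all tested genes.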

How the data were processed

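Poly(A) RNA of AsPC-1 cells was read as single 75 bp reads from strand-directed libraries, per the labels' protocols. The authors deposited 1 table of FPKM values with 1 column per library. The submitters' processing notes name STAR as a tool and hg19 as the build. Which program made the FPKM, from what annotation, and whether it used strand is not given in the sources used here. Columns marked control were taken as vehicle by number. No value lay below 0.01, and 40.3% to 45.8% of values per library stood there. A failure mark filled 72 cells in 41 rows, none of them a member, and these rows were left out. FPKM holds no counts, so no counting interval is given.

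Values were turned into log2(FPKM + 1), which understates changes of low genes; fold values are ratios of FPKM means. Genes at 1 FPKM or more in at least 3 libraries were fitted across all genes with limma 3.58.1 (R 4.3.3; moderated, with an intensity trend, two-sided, Benjamini-Hochberg over 11471 genes, threshold 0.05) and checked on data made with known answers. Ratios of related members, taken as differences of log2(FPKM + 1), were compared with exact two-sided permutation tests over libraries (Python 3.11.15, scipy 1.17.1). Tables and plots used pandas 2.3.3, numpy 2.4.6 and matplotlib 3.10.9. Promoter windows come from RefSeq (GRCh38.p14, 51 members matched), and exon overlaps from GENCODE's GRCh38 annotation. No hg19 coordinate is given.

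Members, lists, pairs and tests were chosen with earlier results of these data known. Every member is named, called ones with each library's value, and each list by its 3 called genes of largest change with at least 5 FPKM in the higher group (2 where under 10 were called). The GC correction, chosen after seeing the data, subtracts from each library a smooth fit of its deviation from the group mean on transcript GC content, which hardly touches the difference between groups.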

Additional observations from a re-analysis of the deposited data

How the results depend on the processing

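The 14 alternatives changed the pseudocount (0.1), the filter (none, or 5 FPKM), the scaling (quantile, median-of-ratios or GC) or the fit (untrended, or with a replicate block), or left out each of the 6 libraries in turn. No called member changed direction under any of them, and 28 of the 38 called members kept their call in every alternative that tested them. E2F8 is among the 28, but its fall was set by the filter, so its kept call is no support. The other 10 (CCND1, CDK2, WEE1, SKP2, E2F1, RBL1, CCNT2, CDK12, CCNG1 and CDK16) lost it in at least 1. The members called higher numbered 8 to 12 and those called lower 21 to 31 over the alternatives. Without DON replicate 2 the counts over all genes moved most. With a library left out, 1185 to 2104 genes were higher and 1504 to 2532 lower, and 9 to 15 genes of the context lists were higher. The cause was not tested. The deviations of same-numbered libraries correlated at 0.254, -0.184 and 0.502, while the second principal component ordered both groups by replicate number. The labels do not say whether the numbers pair libraries, and the main fit left pairing out. With the replicate block 2551 genes were called higher and 2863 lower, and of the members 10 were higher and 31 lower, and in 13 of 15 pairs the ratios of same-numbered libraries differed in 1 direction. CCNK (limma adjusted p = 0.00549) and CDK13 (0.0267) were then called higher and CDKN2D (0.0478) lower. The GC correction acts on deviations from the group means, so it moves the spread and hardly the folds, and it is no test of a GC difference between groups. The GC correction ended the calls of SKP2 (limma adjusted p = 0.057) and E2F1 (0.052). With it CCNC (0.0208), CCNK (0.0352), CDK13 (0.0369) and RB1 (0.0331) were called higher and CDKN2D (0.0158) lower. No scaling moved the median of all genes by over 0.1. With 3 libraries per group no exact permutation p can be under 0.1, and the absolute depth is unknown.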
